A study of Mus musculus with 34 samples.

Results

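The genes described here are 39 mouse genes whose products make ribosomes: the RNA polymerase I (Pol I) machinery, the small nucleolar ribonucleoproteins (snoRNPs), the assembly factors of both ribosomal subunits and the scaffold proteins of the nucleolus. They are the rows whose symbol is on a list of MYC-linked nucleolar genes, and the rule for a row uses no measured value, though the list was drawn up with earlier results of these data known. All 39 were listed among the 46528 genes of the table for mixed-strain tumours and among the 16140 genes of the table for FVB tumours. In the table for Rag1-/- livers, of 14074 genes, 38 members were matched, all but Wdr74.

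Ribosome production starts in the nucleolus, where Pol I transcribes the ribosomal DNA into one long precursor RNA. Box C/D and box H/ACA snoRNPs methylate and pseudouridylate that RNA, and large processing complexes cut it, fold it and load it with ribosomal proteins to give the small and the large subunit. The transcription factor MYC is known to bind and activate many of these genes as well as Pol I transcription itself, and a large nucleolus is a known feature of fast-growing liver cells and liver tumours.

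The study asked how the chromatin remodelling subunit Arid1a bears on liver tumours driven by MYC, using RNA-seq of frozen whole tissue in 34 samples. All mice carried LAP-tta, a transactivator that acts in hepatocytes, and TRE-MYC, a MYC transgene that is switched on when doxycycline water is withdrawn. Mixed-strain tumours (C57/B6, 129 and FVB) came from mice of about 90 days, with 8 Arid1a Het samples (Arid1a fl/+ with Alb-cre) and 8 WT samples (Arid1a fl/fl without Cre). FVB tumours came as 4 Arid1a Homo samples (Arid1a fl/fl with Alb-cre, about 100 days), 4 Het samples (about 70 days) and 4 WT samples (about 55 days). Rag1-/- LAP-MYC livers on the FVB background, from mice of about 42 days, were taken 14 days after injection of adenovirus, 3 with human ARID1A (ad-ARID1A) and 3 with Cre (ad-Cre). The sample titles label the livers of both virus groups WT, and ad-Cre is the control virus. The Cre gene is carried by the Het and Homo tumours and not by WT tumours, so Cre and Arid1a status cannot be told apart there. In livers it is carried by the control virus and not by ad-ARID1A, so Cre and added ARID1A cannot be told apart. In FVB tumours age and genotype cannot be told apart either. Alb-cre deletes in hepatocytes and their progenitors, so other cells of a tumour keep Arid1a, and Rag1-/- mice lack mature lymphocytes. The labels do not say that the samples of a group came from separate mice, so p-values measure the spread between these samples. In bulk tissue, fewer cells of a type and less RNA per cell cannot be told apart.

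Depth was estimated from the steps between low values, at 2.28 to 5.28 M reads (M for mega) in mixed-strain tumours, 6.64 to 12.02 M reads in FVB tumours and 8.72 to 10.6 M reads in Rag1-/- livers. All 12 hepatocyte markers were detected in every table. Mean Arid1a was 8.07 in Het and 8.47 in WT mixed-strain tumours (log2 CPM, here log2(CPM + 0.5) in this table), a difference of -0.41 ± 0.09 (SE; limma adjusted p = 0.083), and 7.74 in Homo, 7.77 in Het and 8.09 in WT FVB tumours. Mouse Arid1a was 6.99 in ad-ARID1A and 6.84 in ad-Cre livers (adjusted p = 0.619); the virus carries the human gene, so this row checks the virus only as far as human reads map to it.

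Among members with a promoter in the RefSeq table of the GRCm38.p6 build, 7 held CACGTG, the palindromic E-box that MYC and its partner MAX can bind, in the 300 bases from 250 before the start to 50 after it. They are printed here because they are the promoters with a canonical MYC motif, and their values are given beside the slopes on Myc. Each window shows 100 bases before the start and 50 from it, 5′ to 3′ on the gene's strand, with CACGTG in capitals. The windows are chr6:125131783-125131932 (plus strand) for Nop2, chr16:13780599-13780748 (plus) for Rrn3, chr11:3963875-3964024 (plus) for Pes1, chr17:71616115-71616264 (plus) for Wdr43, chr11:74897980-74898129 (plus) for Tsr1, chr10:88826765-88826914 (minus) for Utp20 and chr11:72441227-72441376 (plus) for Mybbp1a.
Nop2: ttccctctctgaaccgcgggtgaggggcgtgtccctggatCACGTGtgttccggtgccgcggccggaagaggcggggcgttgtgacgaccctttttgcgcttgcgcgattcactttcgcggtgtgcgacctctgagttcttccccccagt
Rrn3: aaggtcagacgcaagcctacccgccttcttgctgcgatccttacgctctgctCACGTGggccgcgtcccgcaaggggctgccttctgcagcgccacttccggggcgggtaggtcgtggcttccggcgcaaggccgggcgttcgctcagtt
Pes1: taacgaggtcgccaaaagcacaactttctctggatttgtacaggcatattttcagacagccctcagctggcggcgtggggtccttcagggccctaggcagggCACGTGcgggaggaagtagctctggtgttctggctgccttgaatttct
Wdr43: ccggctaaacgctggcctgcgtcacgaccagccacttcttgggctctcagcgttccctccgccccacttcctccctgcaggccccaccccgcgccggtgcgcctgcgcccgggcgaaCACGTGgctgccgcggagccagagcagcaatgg
Tsr1: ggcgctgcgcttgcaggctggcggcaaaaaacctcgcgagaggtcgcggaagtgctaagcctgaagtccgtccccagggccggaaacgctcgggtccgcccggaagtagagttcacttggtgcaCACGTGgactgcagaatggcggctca
Utp20: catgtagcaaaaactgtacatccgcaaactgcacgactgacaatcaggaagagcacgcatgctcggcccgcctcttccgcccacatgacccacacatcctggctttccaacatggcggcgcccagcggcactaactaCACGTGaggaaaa
Mybbp1a: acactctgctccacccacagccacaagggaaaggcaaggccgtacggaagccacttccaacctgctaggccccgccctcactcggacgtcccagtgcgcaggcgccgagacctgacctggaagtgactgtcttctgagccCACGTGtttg
The first base of the motif lay at -60 in Nop2 and at -48 in Rrn3, counted from the start, and Rrn3 held a second copy at -215 outside the bases shown. In the other 5 genes it lay downstream of the window's start, at 2 in Pes1, 17 in Wdr43, 24 in Tsr1, 37 in Utp20 and 40 in Mybbp1a. These starts are those of the RefSeq table, where 24 of the members' 43 windows were at the start of the gene record. For 6 of the 7 printed genes they lay within 28 bases of the GENCODE gene start, and for Wdr43 the window's start lay 320 bases downstream of it.

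A promoter was given for 34 of the 39 members, all but Npm1, Fbl, Bop1, Rrp12 and Rrs1. CACGTG stood in 7 of these 34 (20.6%), against 2187 of the 27025 genes in the table (8.09%). CACGCG, a non-palindromic E-box searched on both strands, stood in 13 members (38.2%), against 10.5% of all genes. CCGGAAG, the core of ETS-factor sites, likewise searched on both strands, stood in 13 members (38.2%), against 9.93% of all genes. These shares describe letters in a window and not binding.

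In Het against WT mixed-strain tumours, no member passed the test, yet 37 of the 39 estimates lay above 0. The median difference of the members was 0.24 on the log2 CPM scale, against 0.05 over all 17552 genes tested. No member had an adjusted p under 0.05 in limma, where 28 genes (0.16%) did. At an unadjusted p under 0.05, 10 members were higher in Het tumours, where 8.29% of all genes were, and 0 were lower, where 7.5% were. Estimates above 0 made up 56.1% of all genes. The members are correlated across these tumours (median correlation of pairs 0.74), so the 37 signs are not independent of each other. The mean over the members was 7.46 ± 0.09 in Het tumours and 7.23 ± 0.32 in WT tumours (SD, n = 8 each), with Het tumours between 7.32 and 7.6 (median 7.48) and WT tumours between 6.68 and 7.70 (median 7.26). All 8 Het tumours lay inside the range of the WT tumours, which spread more widely to both sides.

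**Figure D1:**
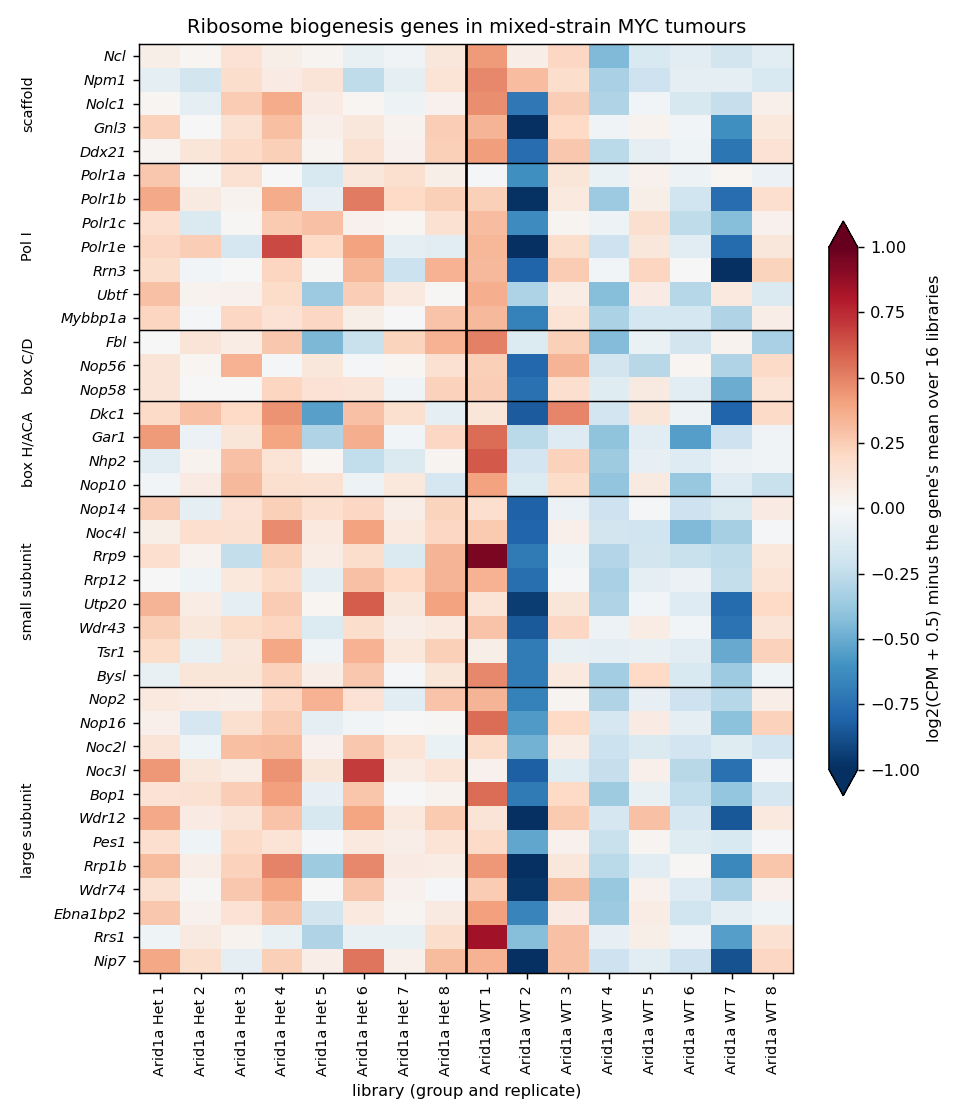
Levels of the 39 members in the 16 mixed-strain tumours, as log2(CPM + 0.5) minus the gene's mean over the 16 samples (colours capped at 1 either way), with Het tumours left of WT tumours and genes grouped by role. WT replicates 2, 4, 6 and 7 are low in nearly every row, with 2, 0, 3 and 3 members above their own mean, and WT replicate 1 is high, with 38.

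The nucleolar scaffold genes had the lowest median of the role groups. Npm1, nucleophosmin, ranked highest of the members per kilobase of annotated exon. It was between 8.25 and 8.68 in Het tumours (median 8.49) and between 8.18 and 8.98 in WT tumours (median 8.41). The difference was -0.03 ± 0.11 (SE). Ncl, nucleolin, which binds precursor rRNA, averaged 9.76 in Het tumours and 9.68 in WT tumours, a difference of 0.08 ± 0.10. Neither of these 2 genes separated the genotypes. Nolc1, the snoRNP chaperone Nopp140, differed by 0.17, Ddx21, an RNA helicase of the nucleolus, by 0.26, and Gnl3, the GTPase nucleostemin, by 0.28. The median of the 5 scaffold genes was 0.17, with 4 above 0.

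All 7 genes of Pol I transcription had estimates above 0, with a median of 0.21. Polr1b, the second-largest Pol I subunit, ran between 7.64 and 8.24 in Het tumours (median 7.94) and between 6.73 and 7.96 in WT tumours (median 7.65). The groups overlapped, and the difference of 0.44 ± 0.16 had an unadjusted p of 0.0155 and an adjusted p of 0.226 in limma. Mybbp1a, a nucleolar protein that binds Pol I and represses rDNA transcription, differed by 0.28 (adjusted p = 0.255). Polr1a, the largest subunit, Polr1c, a subunit shared with Pol III, and Polr1e, the subunit PAF53, differed by 0.16, 0.20 and 0.34. Rrn3, the initiation factor TIF-IA that couples Pol I to growth signals, differed by 0.21, and Ubtf, which keeps rDNA open, by 0.14.

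The snoRNP genes had estimates between 0.00 and 0.28. The box C/D core of Fbl, the rRNA methyltransferase fibrillarin, with Nop56 and Nop58 had a median of 0.19, with differences of 0.09, 0.19 and 0.21. The box H/ACA core of Dkc1, the pseudouridine synthase dyskerin, with Gar1, Nhp2 and Nop10 also had a median of 0.19. Within that core Gar1 differed by 0.28 ± 0.15 and Nhp2 by 0.00 ± 0.12, so the members of one particle did not share one estimate, though the intervals overlap.

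Assembly factors held 8 of the 10 members at an unadjusted p under 0.05 in limma. They were 4 of 8 small-subunit and 4 of 12 large-subunit factors, beside 2 of 7 Pol I genes. The counts were 0 of 5 scaffold, 0 of 3 box C/D and 0 of 4 box H/ACA genes, and 8.29% of all genes were higher. Noc3l, a nuclear factor of early large-subunit assembly, lay between 6.16 and 6.78 in Het tumours (median 6.22) and between 5.27 and 6.14 in WT tumours (median 5.91). It was the one member whose groups did not overlap, which 0.057% of all genes did in this direction. Its difference was 0.53 ± 0.15, with an adjusted p of 0.137. Noc4l, the partner of Nop14 in small-subunit export, lay between 6.66 and 7.07 in Het tumours (median 6.76) and between 5.81 and 6.86 in WT tumours (median 6.41). The groups overlapped in a narrow band, and the difference was 0.41 ± 0.13 (adjusted p = 0.160).

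The 8 small-subunit factors had a median of 0.27 and all 8 estimates were above 0. Among them Utp20, a very large scaffold of the small-subunit processome, differed by 0.43 (adjusted p = 0.226), Tsr1, a GTPase-like late factor, by 0.32 and Nop14 by 0.30. Rrp12, Wdr43, Bysl and Rrp9, which act in the processome or in export of its product, lay between 0.17 and 0.25. The 12 large-subunit factors had a median of 0.28, with 11 above 0. The PeBoW complex, which processes the precursor of large-subunit rRNA, had differences of 0.19 for Pes1, 0.29 for Bop1 and 0.37 for Wdr12. Nip7 differed by 0.42 (adjusted p = 0.294), Nop2, an rRNA cytosine methyltransferase, by 0.28, and Noc2l, the partner of Noc3l, by 0.27 (adjusted p = 0.205). Rrs1 had the lowest estimate of the 39, at -0.06 ± 0.15. Noc2l and Tsr1 share 20.9% and 32.3% of their exon bases with Samd11 and Srr, so part of their reads could belong to either gene.

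Other genes of the pathway had similar estimates, and none passed the test. Estimates were above 0 for 36 of 38 further small-subunit processome genes (median 0.28), 35 of 35 further large-subunit genes (0.25), 14 of 14 further nucleolar helicases (0.27), 9 of 9 snoRNP assembly genes (0.39), 20 of 20 genes of the rRNA exosome and RNase MRP (0.29) and 11 of 14 other Pol I factors (0.20). The smallest adjusted p values in these lists were 0.136 for Ruvbl1 (0.58), a helicase-like chaperone of snoRNP assembly, and 0.136 for Rpp40 (0.69), a subunit of RNase P and MRP. Urb2, a large-subunit factor, had a difference of 0.73 (adjusted p = 0.149) and Nob1, the nuclease that makes the 18S end, one of 0.56 (adjusted p = 0.156). Cytosolic ribosomal protein genes did otherwise: 14 of 78 estimates were above 0, with a median of -0.09. Of 32 MYC targets outside the nucleolus, 21 were above 0, with a median of 0.05.

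Markers of the cell cycle and of other cells also differed between the genotypes, 1 of them past the test. The mean of 12 cell cycle genes was 7.44 ± 0.16 in Het tumours (7.20 to 7.65) and 7.09 ± 0.44 in WT tumours (6.29 to 7.56), with 12 of 12 estimates above 0. The mean of 12 hepatocyte genes was 6.29 ± 0.81 in Het tumours (4.82 to 7.57) and 7.47 ± 0.80 in WT tumours (6.45 to 9.14), with 0 of 12 above 0. Macrophage markers averaged 3.48 in Het tumours (2.85 to 4.41) and 4.88 in WT tumours (3.21 to 6.43), with 1 of 8 above 0, and Cd163 among them, at 2.39 in Het tumours and 4.64 in WT tumours, fell by 2.25 ± 0.41 on the log2 scale (limma adjusted p = 0.0320). Stellate and fibroblast markers averaged 3.93 in Het tumours (3.16 to 5.22) and 4.84 in WT tumours (3.21 to 5.81), with 2 of 9 above 0. Neutrophil markers, with 0 of 7 above 0, endothelial markers, with 2 of 7, and erythroid markers, with 0 of 7, were also lower in Het tumours by estimate. None of these markers was at 0 in every sample. With the cell cycle mean as a covariate, chosen after the values were seen, the median difference of the members was -0.012, with 17 above 0, against 0.24 without it. With the hepatocyte mean as the covariate instead, also chosen afterwards, neither the median nor the count above 0 moved past the limits used here. For the median that limit was wide, the spread of the members' median level between replicates. Whether the cell cycle, cell make-up or genotype set the difference was not tested.

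**Figure D2:**
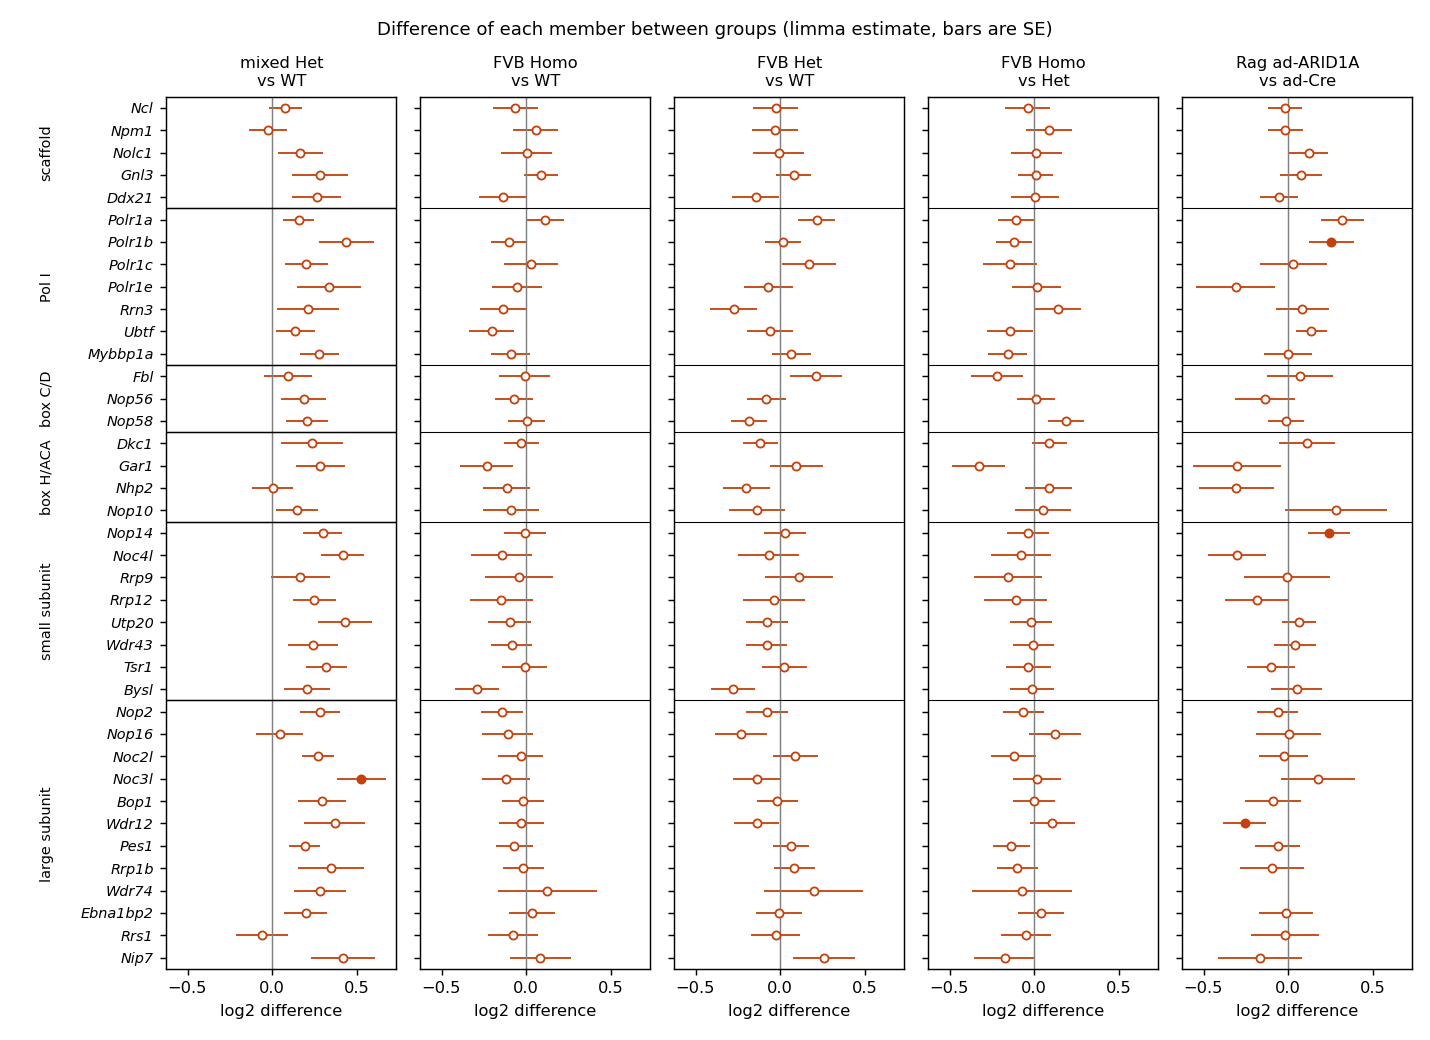
Estimated difference of each member between groups, on the log2 CPM scale, with bars for 1 SE and a filled point where the groups do not overlap. Points of the mixed-strain panel lie right of 0 for 37 of 39 members, while points of the FVB and Rag1-/- panels lie to both sides of 0.

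In FVB tumours no member passed in any of the 3 comparisons of genotype, and the estimates lay near 0. The 2 comparisons with WT share the same WT samples, so their values are given side by side and not as separate evidence. The median difference was -0.07 for Homo against WT and -0.03 for Het against WT, where the medians of all genes were -0.02 and 0.02. Estimates were above 0 for 9 of 39 members in Homo against WT (46.7% of all genes) and for 15 of 39 in Het against WT (52.7%). In limma 7 genes (0.0434%) passed in Homo against WT and 4 genes (0.0248%) in Het against WT, and 0 members did in either. Without adjustment, 1 member was lower in Homo against WT at a p under 0.05 and 0 were higher, where 5.64% and 4.37% of genes were. In Het against WT 0 members had such a p in either direction, where 8.14% of genes were higher and 6.07% lower. For Homo against Het, 0 members and 0 genes passed (0%), 0 members had an unadjusted p under 0.05 (1.33% of genes higher and 2.53% lower), 15 of 39 estimates were above 0 (41.1%) and the median was -0.04, equal to that of all genes at this precision. The mean over the members was 6.90 ± 0.15 in Homo, 6.94 ± 0.11 in Het and 6.96 ± 0.17 in WT tumours (SD, n = 4 each).

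Bysl, bystin, a factor of late small-subunit maturation, had the smallest p in both comparisons with WT. It was at 5.38, 5.46, 5.67 and 5.67 in Homo tumours, at 5.37, 5.53, 5.51 and 5.83 in Het tumours and at 5.87, 5.83, 5.62 and 6.03 in WT tumours. WT replicate 3 lay below the highest Homo and Het samples, so the groups overlapped. The difference was -0.29 ± 0.13 for Homo against WT (adjusted p = 0.478) and -0.28 ± 0.13 for Het against WT (adjusted p = 0.357).

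Among Pol I genes, Rrn3 was at 6.53, 6.64, 6.92 and 6.81 in Homo tumours, 6.41, 6.54, 6.58 and 6.82 in Het tumours and 7.05, 6.88, 6.51 and 7.01 in WT tumours. Again WT replicate 3 was the low WT sample. Its adjusted p was 0.390 for Het against WT, and 2 members, Rrn3 and Bysl, passed in that comparison when samples were weighted by their quality. With those weights the difference was -0.37 for Rrn3 (limma adjusted p = 0.0261) and -0.34 for Bysl (limma adjusted p = 0.0382). The count of all genes that passed was then 2287 of 16140, in place of 4, beside these 2 of 39 members. Ubtf averaged 7.62 in Homo and 7.82 in WT tumours, a difference of -0.21 ± 0.14 (adjusted p = 0.675).

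In Homo against Het, Gar1 had the smallest p. Gar1, a box H/ACA protein, was at 4.86, 5.15, 5.13 and 5.32 in Homo tumours and at 5.42, 5.39, 5.18 and 5.78 in Het tumours. The groups overlapped through Het replicate 3, and the difference of -0.33 ± 0.16 had an adjusted p of 1. Nop58 went the other way by estimate, with a difference of 0.19 ± 0.11. The 78 ribosomal protein genes again stood apart from the assembly genes in sign, with 72 above 0 in Homo against WT (median 0.16) and 69 in Het against WT (median 0.19). Cell cycle genes had 1 of 12 estimates above 0 in each of these comparisons, with means of 6.70 in Homo, 6.79 in Het and 6.90 in WT tumours.

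Wdr74, a large-subunit factor, was near the floor of the FVB table. It was at 0.77 in Homo replicate 3, at 1.06 in Het replicate 3 and at 0.27 in WT replicate 3, and listed at 0 in the other 9 FVB samples. In mixed-strain tumours the same symbol averaged 6.44 in Het and 6.16 in WT. The tables were normalized separately, and the cause was not tested. The FVB counts and means given for 39 members include this gene. Over the other 38, a choice made after the values were seen, the mean was 7.08 ± 0.15 in Homo, 7.11 ± 0.12 in Het and 7.14 ± 0.18 in WT tumours (SD, n = 4 each), and estimates were above 0 for 8 in Homo against WT, 14 in Het against WT and 15 in Homo against Het.

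In Rag1-/- livers 0 of 38 members passed between ad-ARID1A and ad-Cre, where 45 of 14074 genes (0.32%) did. Estimates were above 0 for 16 members and below 0 for 21, against 66.1% above 0 over all genes, and the median was -0.01, against 0.09 over all genes. The mean over the members was 4.36 ± 0.08 with ad-ARID1A and 4.37 ± 0.07 with ad-Cre (SD, n = 3 each). In all, 1 member was higher with ad-ARID1A at an unadjusted p under 0.05 and 0 were lower, where 9.88% and 2.62% of all genes were.

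That member was Polr1a, at 6.02, 5.73 and 6.03 with ad-ARID1A and at 5.73, 5.39 and 5.70 with ad-Cre. The lowest ad-ARID1A sample equalled the highest ad-Cre sample, and the difference was 0.32 ± 0.13 (adjusted p = 0.341). Polr1b was at 4.47, 4.40 and 4.25 with ad-ARID1A and at 4.15, 3.99 and 4.22 with ad-Cre. Its groups did not overlap, nor did those of Nop14, which averaged 4.42 with ad-ARID1A and 4.18 with ad-Cre, while 13.9% of all genes were separated in this direction. Wdr12 was the one member separated the other way, at 4.06, 3.91 and 3.96 with ad-ARID1A and at 4.23, 4.20 and 4.27 with ad-Cre, where 3.47% of all genes were. Its difference was -0.26 ± 0.13 (adjusted p = 0.447). By role, 5 of 7 Pol I genes had estimates above 0 and 2 of 11 large-subunit genes did, and none passed. The mean of the cell cycle genes, of which 11 were matched, was 1.87 with ad-ARID1A and 1.73 with ad-Cre in these livers.

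**Figure D3:**
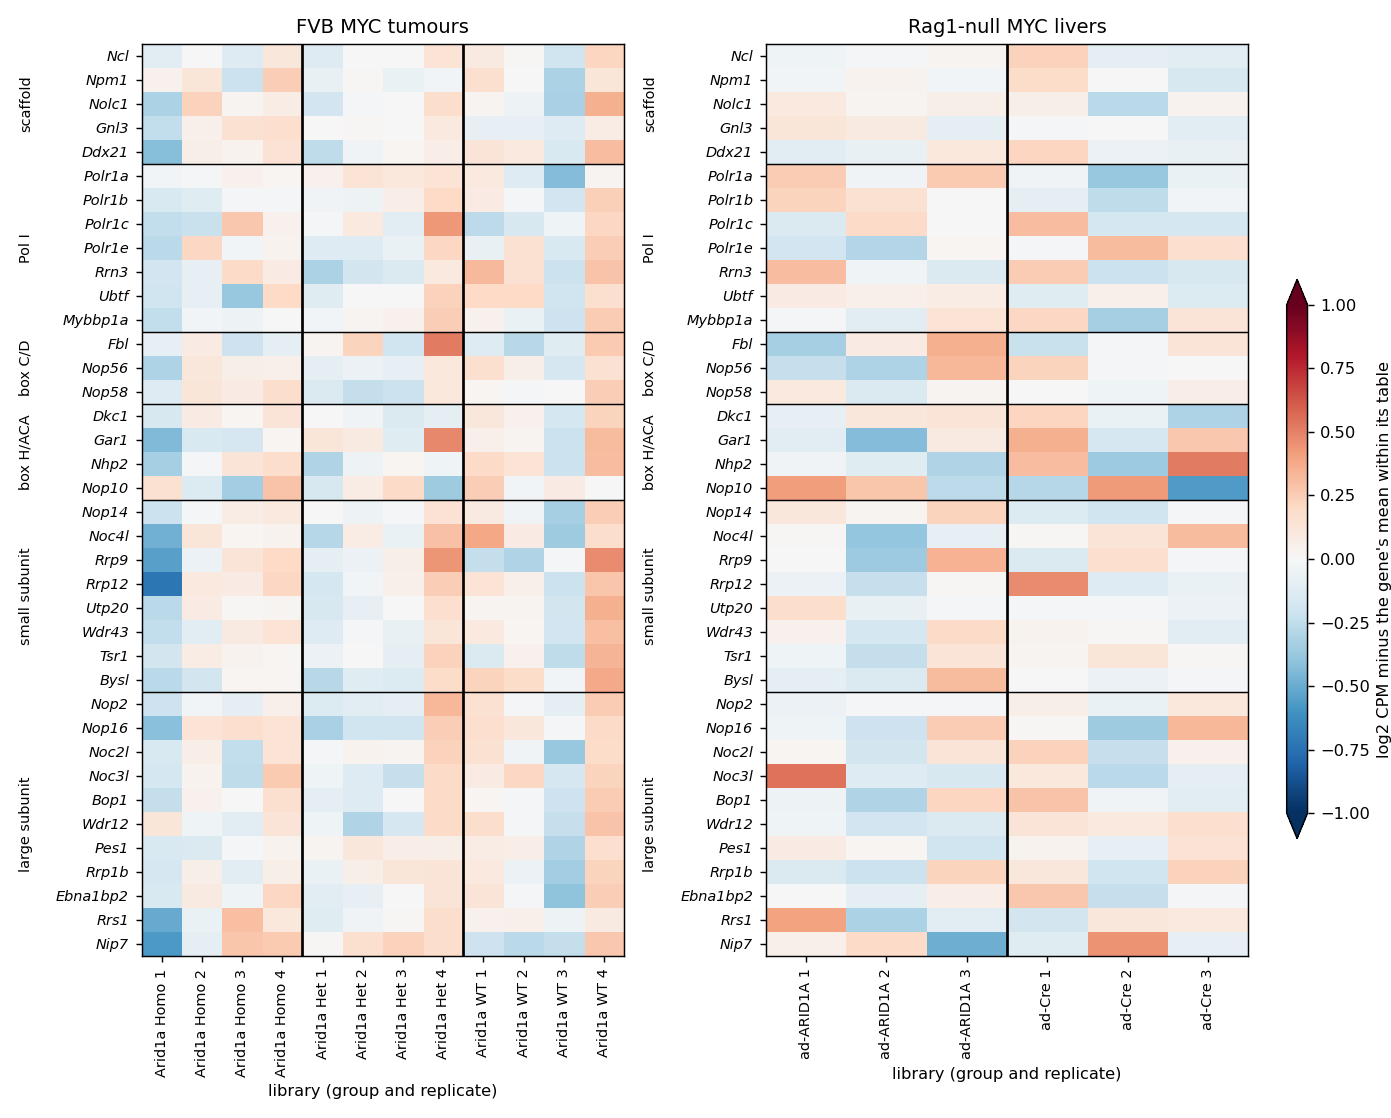
Levels of the members in the 12 FVB tumours (Homo, Het and WT from left to right) and the 6 Rag1-/- livers (ad-ARID1A left of ad-Cre), as log2 CPM minus the gene's mean in its table, with Wdr74 left out. Columns differ within each genotype: Homo replicate 1 and WT replicate 3 have 3 and 2 members above their own mean, and WT replicate 4 and Het replicate 4 have 38 and 34.

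The Myc row itself differed little between tumour genotypes. It averaged 4.25 ± 0.76 in Het and 4.44 ± 0.57 in WT mixed-strain tumours (SD, n = 8 each), a difference of -0.19 ± 0.31 (adjusted p = 0.788), and 3.82 in Homo, 3.85 in Het and 3.81 in WT FVB tumours. In livers it was at 3.88, 2.66 and 2.41 with ad-ARID1A and at 5.0, 3.93 and 4.22 with ad-Cre, with no overlap, a difference of -1.40 ± 0.38 and an adjusted p of 0.175. The mean over the members in the same livers, given above, was 4.36 with ad-ARID1A and 4.37 with ad-Cre. The labels do not give the species of the MYC transgene, and how far this row holds transgene reads was not tested.

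Across the 16 mixed-strain tumours the members did not go up with Myc. Within genotype the slope on Myc was below 0 for 36 of 39 members and above 0 for 3, while 48% of all genes lay above 0, and the median was -0.07 log2 per log2 of Myc. In limma 0 members passed, where 311 genes (1.77%) did. At an unadjusted p under 0.05, 2 members had slopes below 0 and 0 members above 0, where 7% and 9.32% of all genes did. These were Ubtf, with a slope of -0.23 ± 0.08 (adjusted p = 0.137), and Dkc1, with -0.30 ± 0.13 (adjusted p = 0.275). No member and 0 genes (0%) passed in the test of whether the slope differed between Het and WT tumours, and 0 members had an unadjusted p under 0.05 there (1.42% of genes higher in Het and 2.46% lower). The difference of slopes was above 0 for 22 of 39 members, against 43.5% of all genes.

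In the case of Ubtf, Het replicate 5 had the highest Myc, 5.95, and the lowest Ubtf of its group, 7.74. WT replicate 4 had the next highest Myc, 5.59. These 2 tumours also had the highest means of 7 biliary and progenitor markers, 4.96 and 4.99, with WT replicate 8 next at 3.51. Whether this trait bears on the slopes was not tested. Over 16 tumours Pearson's r was -0.66 (permutation p = 0.00452, adjusted 0.353 over the 78 coefficients computed for the members) and Spearman's rho was -0.48 (permutation p = 0.0630, adjusted 0.641). Without those 2 tumours, the farthest from the median Myc, r was -0.29, and the slope was -0.09 (limma adjusted p = 0.878) against -0.23 with all 16, so the size of the relation rests on these 2 together. Leaving out 1 tumour at a time kept the slope between -0.26 and -0.20. Over the members the median r was -0.23 with all 16 tumours and -0.27 without these 2, and 37 and 31 of 39 were below 0. Within genotype the median r was -0.42 over 8 Het tumours and -0.17 over 8 WT tumours. The values of one tumour share its library and its depth.

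In FVB tumours the slopes on Myc lay the other way, and none passed. Of 39 members, 38 had slopes above 0, against 62.2% of all genes, with a median of 0.31 against 0.13. Only 2 members had an unadjusted p under 0.05, Nolc1 with 0.55 ± 0.24 and Nop14 with 0.45 ± 0.20, where 2.99% of all genes were higher, and 0 members were lower, where 1.18% were. Their adjusted p was 0.945 in limma, and 0 genes passed (0%). WT replicate 3 had the lowest Myc, 3.31, and without it the median slope of the members was 0.12. The 2 tables were normalized and fitted separately, and the difference between their slopes was not tested.

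Members with CACGTG in the promoter window had medians close to those of members without it. The median slope on Myc was -0.07 for the 7 with the motif and -0.08 for the 27 without it in mixed-strain tumours, and 0.33 and 0.31 in FVB tumours. The median difference between Het and WT mixed-strain tumours was 0.28 with the motif and 0.24 without it. No test was made of these medians.

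**Figure D4:**
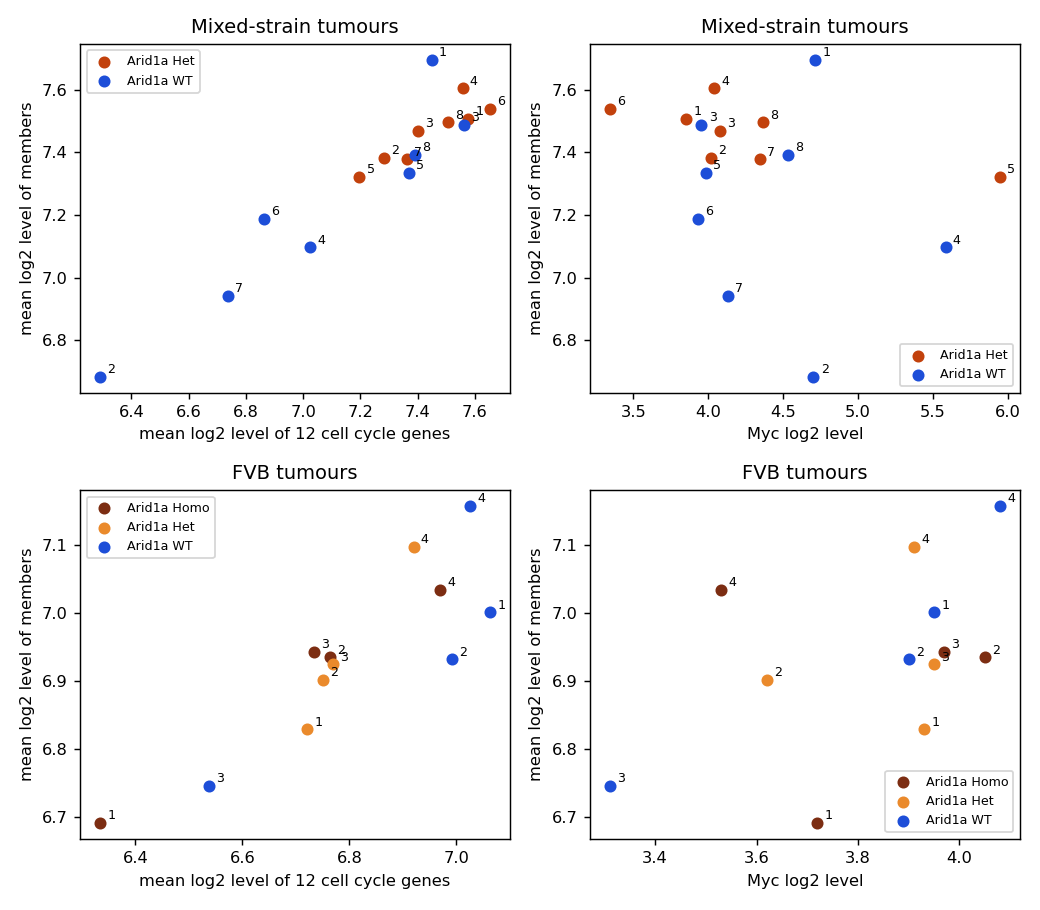
Mean log2 CPM of the members in each tumour, against the mean of 12 cell cycle genes (left) and against Myc (right), for mixed-strain tumours (top) and FVB tumours (bottom), with replicate numbers beside the points. Tumours with a higher cell cycle mean have a higher member mean, with WT replicate 2 at the low end of the mixed-strain panel (6.29 and 6.68), while the tumours with the highest Myc, at 5.95 and 5.59, have member means of 7.32 and 7.10.

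The members followed the cell cycle genes from tumour to tumour, a relation looked for after the values had been seen. In mixed-strain tumours, within genotype, 31 of 39 members had a slope above 0 on the mean of the 12 cell cycle genes at an adjusted p under 0.05, where 10.4% of all genes did. Slopes above 0 were found for 38 of 39 members and 53.1% of all genes, and the median slope was 0.69 log2 per log2, against 0.05 over all genes. Without WT replicate 2, the tumour with the lowest cell cycle mean, the shallowest library and the highest hepatocyte mean (9.14), 14 members passed. In that fit 876 of 17540 genes passed in either direction, against 2349 with all 16 tumours. By role, 8 of 8 small-subunit factors passed, 11 of 12 large-subunit factors, 6 of 7 Pol I genes, 3 of 5 scaffold genes, 2 of 3 box C/D genes and 1 of 4 box H/ACA genes.

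Wdr12 had the smallest p, with a slope of 1.11 ± 0.12 (limma adjusted p = 5.6e-05). It ran between 6.76 and 7.32 in Het tumours (median 7.12) and between 5.85 and 7.22 in WT tumours (median 6.89). Its lowest values, 5.85 and 6.08, were in WT replicates 2 and 7, the tumours with the lowest cell cycle means. Polr1b followed, with 1.01 ± 0.11 (adjusted p = 5.81e-05). Nip7, at 6.25 to 6.87 in Het tumours (median 6.54) and 5.22 to 6.68 in WT tumours (median 6.18), had a slope of 1.13 ± 0.15. Utp20, at 8.04 to 8.74 in Het tumours (median 8.32) and 7.19 to 8.34 in WT tumours (median 8.06), had one of 0.95 ± 0.13. In each of these genes the WT tumours reached lower than any Het tumour, while their highest values lay inside the Het range. Gnl3, Rrp1b, Wdr43 and Nop58 had slopes of 0.97, 1.14, 0.86 and 0.71, all with adjusted p under 0.05.

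The 8 members that did not pass included both Npm1 and Ncl. Npm1 had a slope of -0.05 ± 0.18, Ncl one of 0.15 ± 0.15 and Fbl one of 0.28 ± 0.22. Nop10, Nhp2 and Gar1 of the box H/ACA core had 0.25, 0.31 and 0.53, Ubtf had 0.42 (adjusted p = 0.0946) and Noc2l 0.37 (adjusted p = 0.0525). Npm1 has many processed copies in the mouse genome, and the sources used here do not say how its reads were shared among them.

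The same fit called other pathway genes together with the members. Slopes above 0 passed for 30 of 38 further small-subunit genes, 29 of 35 large-subunit genes, 11 of 14 helicases, 9 of 9 snoRNP assembly genes, 12 of 20 exosome and RNase MRP genes and 6 of 14 other Pol I factors. Wdr3, of the small-subunit processome, had a slope of 1.10 ± 0.10 (adjusted p = 2.24e-05), Cirh1a one of 1.19 and Naf1, which loads H/ACA proteins, one of 1.58. None of 78 ribosomal protein genes passed, with a median of -0.20. Of the MYC targets outside the nucleolus 9 of 32 passed, Gart, a purine synthesis enzyme, with a slope of 1.0. Apob and Alb, secreted hepatocyte proteins, passed with slopes below 0, at -0.99 and -0.74.

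**Figure D5:**
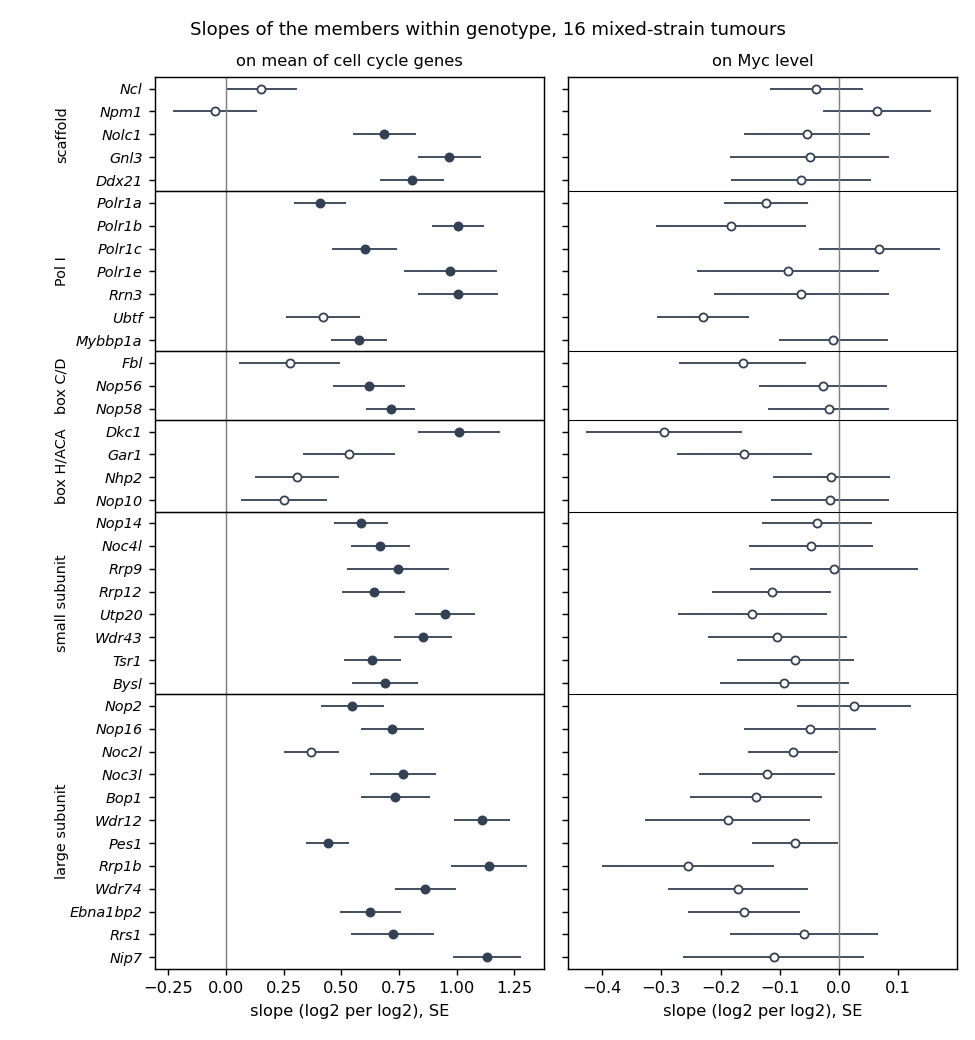
Slope of each member within genotype over 16 mixed-strain tumours, on the mean of 12 cell cycle genes (left) and on Myc (right), in log2 per log2, with bars for 1 SE and filled points at an adjusted p under 0.05. Of the points on the left 31 are filled and 38 lie right of 0, while no point on the right is filled and 36 lie left of 0.

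In FVB tumours 37 of 39 slopes on the cell cycle mean were above 0, against 70.6% of all genes, with a median of 0.64 against 0.31. At an unadjusted p under 0.05 there were 32 members, where 15.6% of all genes were higher. In limma 0 members and 0 genes (0%) passed. Rrp12, an export factor of the small subunit, had the largest slope, 1.22 ± 0.22 (adjusted p = 0.0596). It was at 6.17, 6.99, 6.98 and 7.10 in Homo tumours, 6.72, 6.87, 6.95 and 7.14 in Het tumours and 7.03, 6.95, 6.68 and 7.17 in WT tumours. The lowest Homo and WT values were in Homo replicate 1 and WT replicate 3, the tumours with the lowest cell cycle means of their groups.

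Slopes on the mean of 12 hepatocyte genes, also looked for after the values had been seen, were above 0 for 2 of 39 members in mixed-strain tumours (45.4% of all genes) and for 0 of 39 in FVB tumours (45.9%). The medians were -0.16 and -0.15. In limma 0 members passed in either table, where 77 genes (0.439%) did in mixed-strain tumours and 0 genes (0%) in FVB tumours. Without adjustment, 16 members had slopes below 0 at a p under 0.05 in mixed-strain tumours, where 7.39% of all genes were, and 1 in FVB tumours, where 0.899% were.

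Most members varied together among mixed-strain tumours. The correlation of a member with the mean of the other members had a median of 0.88 over the 16 tumours, and 30 of 39 members were above 0.8, which 4.68% of other genes were. In FVB tumours the median was 0.77, with 17 of 39 above 0.8 (3.07% of other genes), and in the 6 Rag1-/- livers it was 0.38, with 3 of 38, Noc2l, Ebna1bp2 and Bop1, above 0.8 (4.37% of other genes). These are descriptions, since the samples of a table share libraries, depth and groups. The correlations were not computed without WT replicate 2, the shallowest mixed-strain library, which had the lowest member mean (6.68). Bop1 and Ddx21 were highest in mixed-strain tumours, at 0.95, and Npm1 lowest, at 0.10, followed by Fbl at 0.45 and Ncl at 0.49.

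Npm1 and Ncl did follow each other. Within groups their correlation was 0.88 in mixed-strain tumours, 0.81 in FVB tumours and 0.86 in Rag1-/- livers. Pes1 and Bop1, of one complex, had 0.86, 0.67 and -0.53 in these tables. Noc4l with Nop14 had 0.82, 0.78 and 0.69, the last of which was -0.34 across all 6 livers with group means kept. Fbl with Nop56, both of the box C/D core, had 0.27 in mixed-strain tumours. Among role groups the median correlation of pairs in mixed-strain tumours was 0.80 for small-subunit and for large-subunit factors, 0.64 for Pol I genes, 0.46 for box H/ACA and 0.27 for box C/D genes.

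Levels were ranked within a table as log2 CPM per kilobase of exon. Exon length took in every annotated exon of a gene, 2665 bases for Npm1, 10188 for Ncl and 11955 for Wdr12. The ranks therefore depend on the annotation as well as on the reads. Without that division, mean levels in mixed-strain tumours were 9.72 for Ncl, 8.50 for Npm1 and 6.92 for Wdr12. Npm1 was highest in every group, at 7.07 in Het and 7.10 in WT mixed-strain tumours, at 8.93 in Homo and 8.88 in WT FVB tumours and at 4.73 in ad-ARID1A and 4.74 in ad-Cre livers. Ncl came next in FVB tumours (7.75 in Homo and 7.82 in WT) and in livers (4.11 with ad-ARID1A and 4.13 with ad-Cre), and Nhp2 in mixed-strain tumours (6.86 in both genotypes). In mixed-strain tumours Nhp2 and Nolc1, at 6.82 in Het, did not differ beyond their spread. Polr1e was lowest in mixed-strain tumours (3.47 in Het and 3.14 in WT) and in livers (0.04 with ad-ARID1A and 0.35 with ad-Cre), with Wdr12 next. The members lie on 18 chromosomes, and 7 of them host 21 annotated snoRNAs, with 5 in Nop56 and 4 in Nop58.

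A row for the 45S precursor was not analysed here. Gm26917, a long non-coding gene at chr17:39843013-39846341 (GRCm38) that holds rRNA-like sequence, had means of 10.05 in Het and 10.13 in WT mixed-strain tumours, a difference of -0.08 ± 0.15 (adjusted p = 0.824). It averaged 16.46 in Homo, 16.54 in Het and 16.38 in WT FVB tumours, and 14.45 with ad-ARID1A and 14.71 with ad-Cre. How much of this row is rRNA left after library preparation was not tested, and it is not read as Pol I output. Gm26917 was the highest gene of every FVB sample. Its share of all CPM there ran from 7.32% (Homo replicate 1) to 14.0% (Het replicate 4). How far that share bears on the FVB values of the members was not tested.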

How the data were processed

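RNA-seq of 34 frozen liver and tumour samples was read from 3 tables, 1 per experiment. Reads were trimmed with Trim Galore, aligned with HISAT2 to GRCm38 (mm10), handled with SAMtools and counted with featureCounts, per the submitters' processing notes, which give no role or order for these tools and no versions. The authors deposited log2 CPM values in each table. The mixed-strain table is named RPKM, but its values are log2(CPM + 1) by their own sums, so they were turned back to CPM and tested as log2(CPM + 0.5), for genes with a mean of at least 0.5 CPM. In the FVB and Rag1-/- tables genes at or under 1 CPM are listed at 0, and the values were used as deposited. Counts were not given, so depth was estimated from the steps between low values. A difference on these scales understates the change of low genes.

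Each table was fitted alone with limma 3.58.1 (lmFit and eBayes with a variance trend, R 4.3.3), and p-values were adjusted by Benjamini-Hochberg over all genes tested. FVB comparisons used all 3 genotypes in 1 fit. Slopes on Myc had genotype as a covariate, and correlations with Myc used 100000 permutations (two-sided). Slopes on the cell cycle and hepatocyte means were added after the values were seen, and genes of each mean were left out of that test. Other steps used Python 3.11.15, numpy 2.4.6, scipy 1.17.1 and pandas 2.3.3. Exon lengths, overlaps and snoRNA hosts came from GENCODE M21 (GRCm38), and promoters from RefSeq (GRCm38.p6).

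Groups came from the genotype labels, since the treatment text describes Het and Homo mice in the same words. The ad-ARID1A columns carry a control-virus name in part of their labels and were matched by title and number. No column of a sample outside the series was used (0 columns). Replicates were compared, and no pair agreed within sampling noise (smallest variance ratio 2.79). The members and gene lists were chosen with earlier results of these data known. All 39 members could be named; from each further list, up to 4 genes that passed or otherwise the 2 with the smallest p. The fits were tested before use on simulated data with planted changes larger than any difference or slope given for the members. That test does not show how often changes of the members' size would be found.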

Additional observations from a re-analysis of the deposited data

Results flagged for a closer look

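Values were checked in 205 sets, each of a member, Myc or the mean over the members in 1 group. Of these, 21 (10.2%) had a sample whose gap to its nearest neighbour was past Dixon's 95% limit, and chance flags about 1 in 20 sets. In mixed-strain tumours, Het replicate 5 was low for Ubtf (7.74) and Wdr43 (7.99) and high for Myc (5.95), and Het replicate 3 was high for Nop56 (8.31). WT replicate 2, the shallowest library, was low for Polr1a (8.12) and Nop14 (6.43), WT replicate 1 was high for Gar1 (6.61) and WT replicate 4 was high for Myc (5.59). In FVB tumours, Homo replicate 1 was low for Nop56 (7.95), Noc4l (5.47), Rrp12 (6.17) and Nop16 (5.56). Het replicate 4 was high for Nop56 (8.36) and Nop2 (7.68), and Het replicate 2 was low for Myc (3.62). WT replicate 4 was high for Nop58 (8.26) and Nip7 (5.99), and WT replicate 3 was low for Ubtf (7.53). Wdr74 was above 0 only in replicate 3 of each FVB genotype, at 0.77 in Homo, 1.06 in Het and 0.27 in WT tumours. Its other FVB values were all listed at the floor of 0, so its flags follow from that floor. All values are log2 CPM. The 4 genes low in Homo replicate 1 were low in the FVB tumour with the lowest cell cycle mean (6.33), and what sets that sample apart was not tested.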

How the results depend on the processing

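No member passed in any comparison of groups under any alternative, except for Rrn3 and Bysl in FVB Het against WT with array weights. There 2 of 39 members passed beside 2287 of 16140 genes. Counts of all genes that passed depended on the settings. For mixed-strain Het against WT (28 genes) they were 3 without a filter, 101 with array weights, 75 with the replicate number as a replicate block, 16 without WT 2 and Het 5, 6 with the cell cycle mean and 2 with the hepatocyte mean as a covariate. With the cell cycle covariate the member median was -0.012, with 17 members above 0. With the hepatocyte covariate neither moved past the limits used here. For FVB Het against WT (4 genes) they were 0 with a stricter filter, 7 with median centring, 2 with quantile normalization, 2287 with array weights, 0 with the replicate block, 1 with only the 2 groups in the fit and 1 without WT 1 and WT 2. For FVB Homo against WT (7 genes) they were 0 with the stricter filter, 21 with array weights, 1 with the replicate block, 0 with only the 2 groups and 3 without WT 1 and WT 2. Median centring put 23 members above 0 in Homo against WT and 23 in Homo against Het. For ad-ARID1A against ad-Cre (45 genes) they were 22 with quantile normalization and 1 without a variance trend, and the members' median was -0.12 with 8 above 0 after centring and -0.092 with 9 above 0 after quantile normalization. Same-numbered samples had correlated deviations over 0.1 in 1 of 8 pairs of mixed-strain tumours, 2 of 4 of FVB Het and WT, 1 of 4 of Homo and WT, 0 of 4 of Homo and Het and 0 of 3 of livers (-0.20 to 0.28), so the replicate block was not taken as a pairing. Leaving Wdr74 out of the members, chosen after seeing the data, moved no FVB count or median of the members past the limits used here. For the mixed-strain slope on Myc (311 genes) counts were 190 with a pseudocount of 0.1, 103 without a filter, 145 with the stricter filter, 1173 with array weights, 0 without the 2 tumours farthest in Myc and 0 without WT 2 and Het 5. Array weights called 1 member, Ubtf (-0.24, adjusted p = 0.0318). Members above 0 were 6 with quantile normalization and 10 under either omission of 2 tumours. The FVB median slope on Myc was 0.11 with quantile normalization, 0.11 with array weights and 0.54 without the 2 farthest tumours. Median centring gave 8 genes and 1 member (Rrp12, 1.52, adjusted p = 0.0430) for the FVB cell cycle slope, 4 members above 0 for the mixed-strain hepatocyte slope, and 1 gene with 2 members above 0 for the FVB one. Leaving out 1 sample at a time gave 8 to 138 genes, a member median of 0.14 to 0.31 and 35 to 39 members above 0 for mixed-strain Het against WT, where the lowest median came without WT replicate 2. It gave 0 to 256 genes, -0.13 to 0.03 and 8 to 23 for FVB Het against WT, 0 to 36 genes, -0.13 to 0.02 and 3 to 21 for Homo against WT, 0 to 3 genes, -0.07 to 0.06 and 7 to 25 for Homo against Het, and 0 to 19 genes, -0.05 to 0.05 and 14 to 23 for ad-ARID1A against ad-Cre. It gave 0 to 437 genes, 0 to 1 members and 3 to 8 above 0 for the mixed-strain slope on Myc (Ubtf, without WT replicate 1), 0 to 16 genes for its difference between genotypes, and 0 to 1 genes with a median of 0.12 to 0.46 for the FVB one. It gave 876 to 2433 genes and 14 to 33 members for the mixed-strain cell cycle slope and 0 to 5 genes for the FVB one, and 0 to 108 genes with 0 to 5 above 0 and 0 to 4 genes with 0 to 2 above 0 for the 2 hepatocyte slopes. The cause of these shifts was not tested. Depth was at most 5.28 M reads in mixed-strain tumours, where the smallest ratio of a replicate pair's variance to sampling noise was 5.19; how far depth limits the members with low values was not tested.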
